A study of Mus musculus with 34 samples.

Results

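The type I interferon response genes followed here are 36 named mouse genes whose transcription rises when cells sense interferon alpha or beta. They were chosen by symbol from a list that was drawn up with earlier results of these data known, and all 36 were found among the 55487 gene IDs of the deposited tables. They were measured by bulk RNA-seq of the liver in male mice aged 3 months (34 libraries). The first table holds 22 libraries. Wild-type (WT) mice received PBS intraperitoneally (6 libraries) or tumour necrosis factor alpha (TNFa) for 2 h (6 libraries). PiZ mice, which carry a transgene for the human Z variant of alpha-1 antitrypsin, received PBS (5 libraries), as did mice labelled PiZ with the p50 subunit of NF-kB knocked out (PiZ p50KO, 5 libraries). The Z variant misfolds and polymerizes in the endoplasmic reticulum of hepatocytes. The second table holds WT mice given DMSO (6 libraries) or, for 24 h, tunicamycin (6 libraries), an inhibitor of N-linked glycosylation that causes endoplasmic reticulum stress. The labels assign the tables to separate batches, so no level was compared between them. The labels do not state which part of Nfkb1, the gene that encodes p50, was deleted, nor which promoter drives the PiZ transgene.

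Interferons alpha and beta bind the receptor formed by Ifnar1 and Ifnar2, and the kinases Jak1 and Tyk2 then phosphorylate Stat2. Stat2 and Irf9 act within a complex, ISGF3, that binds the interferon-stimulated response element (ISRE) in front of the responding genes. These genes encode enzymes and binding proteins that detect viral nucleic acid or block viral replication, together with factors such as Irf7 that amplify the response and Usp18 that restrains it. In the liver both hepatocytes and macrophages can mount this response.

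The WT PBS library numbered 2 stood apart from all others and was left out of the tests; its values are stated separately. Its depth was 10.2 M reads (M, mega), of which 72.2% fell on protein-coding genes, against 35.5 to 54.0 M reads and 97.3 to 97.8% in the other libraries of the first table. It had 32360 genes above 1 CPM (counts per 1000000 reads), against 11683 to 13202. Of the 35 members tested in the first table, 30 were higher in it than in every other WT PBS library, while its summed hepatocyte marker level was 9057 CPM against 98337 to 130231 CPM in the other WT PBS libraries. The second table's libraries held 34.3 to 47.8 M reads. Levels are log2 CPM throughout, and a gene was called where the limma test gave an adjusted p under 0.05 over all genes of its table, 13285 in the first and 13388 in the second. Mx1 was too low to be tested in the first table, and Oas1g, Oas3, Ifi44 and Mx1 in the second. Tests treat each library as a separate mouse, and in a bulk sample fewer cells of a type and less RNA per cell cannot be told apart.

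Many members lie beside one another in the genome (GRCm38, GENCODE M21). Oas2, Oas3, Oas1g and Oas1a follow each other on the minus strand of chromosome 5 from 120730333 to 120907521, and Oasl2 and Oasl1 lie on the plus strand of the same chromosome from 114896936 to 114937915. Ifit2, Ifit3, Ifit3b and Ifit1 follow each other on the plus strand of chromosome 19 from 34550694 to 34650009. Dtx3l and Parp9 start head to head on chromosome 16 and overlap, Rsad2 and Cmpk2 point away from each other on chromosome 12 with 12751 bases between them, and Mx1 and Mx2 both lie on chromosome 16. Some copies are so alike that short reads may be assigned to the wrong one. Of the 50-base stretches of Oas1a, 57.6% also occur in other genes, chiefly Oas1g. For Oas1g, Ifit3 and Ifit3b the shares were 54.7%, 51.2% and 45.0%, so the separate values of these 4 genes are uncertain. Herc6 shared 23.8% with Gm45193 and Rtp4 13.65% with Gm45338, both on the same strand, and Irf9 overlaps Rnf31 on the same strand. Whether the counting used strand is not given in the sources used here, so reads of genes that overlap on opposite strands cannot be told apart on their shared stretches. Among these are Dtx3l and Parp9, Irf1 and Gm17334, Irf7 and Phrf1, Ifi35 and Gm11626, and Rtp4 and Masp1.

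The promoters show a sequence that many members share. The members were chosen as interferon response genes, in front of which the ISRE lies, so a high share of it is partly set by that choice. The RefSeq promoter table (GRCm38.p6; 250 bases before to 50 after each start) matched 27 of the 36 members, with 31 promoters. The following 200 bases upstream of the start are shown for some of the genes whose values carry the results below, each with a match to a motif named next. Irf7, Ifi44, Ifit2 and Xaf1, whose values also carry results, held no match in that stretch, and Oasl1 held only the NF-kB motif. Capitals mark the ISRE core GAAANNGAAA in Oas1a, Oas1g, Isg15, Ifit3, Ifit3b and Trim30a, the gamma-activated sequence (GAS) core TTCNNNGAA in Oas1a and Irf1, and the NF-kB motif in Irf1, each searched on both strands, so that the reverse complement is also marked.
Oas1a: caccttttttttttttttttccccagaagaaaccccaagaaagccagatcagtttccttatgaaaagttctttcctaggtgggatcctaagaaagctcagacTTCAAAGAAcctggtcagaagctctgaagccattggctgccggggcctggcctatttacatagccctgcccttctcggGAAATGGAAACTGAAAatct
Oas1g: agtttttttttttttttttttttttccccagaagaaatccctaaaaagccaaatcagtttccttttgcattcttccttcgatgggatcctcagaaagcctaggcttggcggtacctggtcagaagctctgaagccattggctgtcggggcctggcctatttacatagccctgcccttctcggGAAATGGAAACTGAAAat
Isg15: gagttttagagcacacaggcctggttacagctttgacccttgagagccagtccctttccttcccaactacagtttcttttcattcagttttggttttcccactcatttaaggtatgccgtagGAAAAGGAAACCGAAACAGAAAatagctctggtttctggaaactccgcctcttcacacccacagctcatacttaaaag
Ifit3: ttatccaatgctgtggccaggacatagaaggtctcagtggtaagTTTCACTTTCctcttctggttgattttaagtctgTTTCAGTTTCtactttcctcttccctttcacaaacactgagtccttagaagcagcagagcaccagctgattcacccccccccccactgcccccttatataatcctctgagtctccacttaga
Ifit3b: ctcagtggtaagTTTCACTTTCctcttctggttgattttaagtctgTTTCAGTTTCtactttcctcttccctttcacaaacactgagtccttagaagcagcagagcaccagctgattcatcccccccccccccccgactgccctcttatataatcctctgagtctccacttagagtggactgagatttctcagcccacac
Trim30a: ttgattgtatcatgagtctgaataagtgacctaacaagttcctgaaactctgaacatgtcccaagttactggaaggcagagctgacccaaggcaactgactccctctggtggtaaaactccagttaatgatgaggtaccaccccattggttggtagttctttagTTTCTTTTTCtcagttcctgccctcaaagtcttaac
Irf1: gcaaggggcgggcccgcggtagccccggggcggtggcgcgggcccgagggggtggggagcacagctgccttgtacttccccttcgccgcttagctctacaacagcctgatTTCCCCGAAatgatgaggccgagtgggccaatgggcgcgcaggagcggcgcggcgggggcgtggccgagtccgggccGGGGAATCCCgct
The windows are chr5:120907526-120907725 for Oas1a, chr5:120887614-120887813 for Oas1g, chr4:156200819-156201018 for Isg15 and chr7:104465194-104465393 for Trim30a, all on the minus strand. They are chr19:34583329-34583528 for Ifit3, chr19:34607757-34607956 for Ifit3b and chr11:53769814-53770013 for Irf1, all on the plus strand.

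Of the 31 promoters of members, 15 (48.4%) held the ISRE core, against 3.44% of all 32851 promoters in the table. By gene these were 14 of 27 (51.9%), against 3.99% of 27025 genes. The promoters of Oas1a and Oas1g (69.5% of 298 bases identical) and of Ifit3 and Ifit3b (75.0% of 268) were counted separately, as were the 2 of Trim30a. The GAS core was in 6 of 31 (19.4%), against 8.30% of all promoters, and the NF-kB motif in 3 of 31 (9.68%), against 4.51%. Isg15 held the ISRE core at 3 overlapping positions, which began at -78, -72 and -66 from the start. Oas1a and Oas1g each held it at overlapping positions, beginning at -20 and -14 and at -18 and -12. In Ifit3 and Ifit3b the core occurred at -156 and -122 and at -188 and -154, that is, 34 bases apart in both. Trim30a, which encodes a tripartite-motif protein, held 1 at -36 in the window shown. Irf1 had no ISRE core in the window but had the GAS core at -90 and the NF-kB motif at -13. In the promoter of Bst2, which encodes the virion-retaining protein tetherin, the NF-kB motif, the GAS core and a doubled ISRE core began at -142, -136, -130 and -124, so that neighbouring matches overlap. A match describes the letters of the window and was not tested as a binding site.

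**Figure D1:**
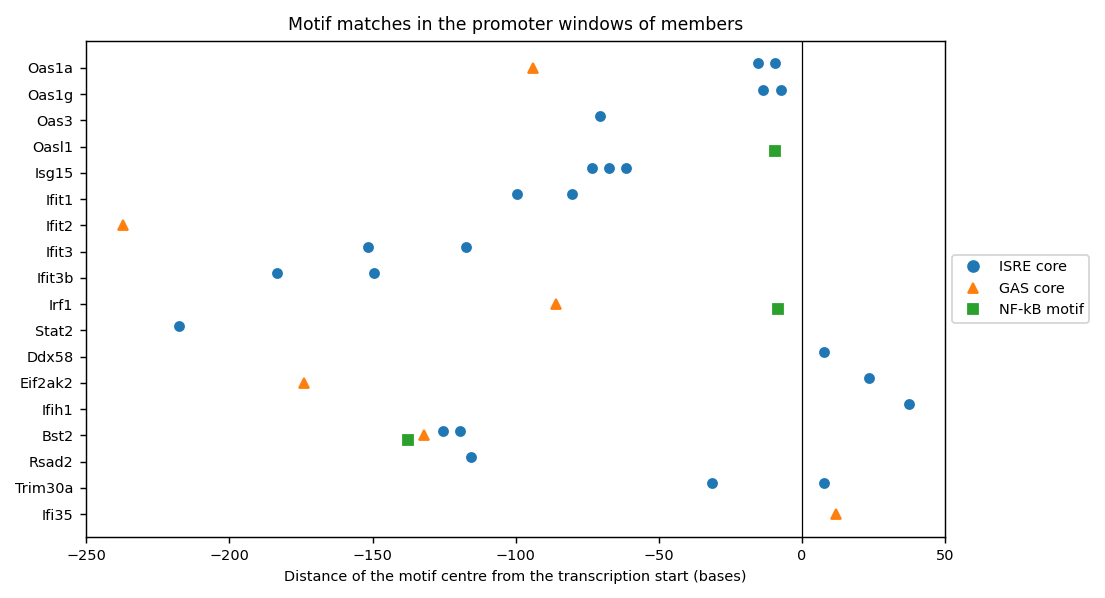
Centre of each motif match (x axis, bases from the start of transcription) in the promoters of the members that hold at least 1 match, with 1 line per gene and 1 symbol per motif. Most ISRE cores lie within 200 bases upstream of the start, and Irf1 holds the GAS and NF-kB motifs without an ISRE core.

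The first comparison asked how the members differed between PiZ and WT livers after PBS. In PiZ livers the members rose almost without exception: 34 of the 35 tested were higher and none was lower by limma (0 lower also at an unadjusted p under 0.05), and in 31 of them every PiZ library exceeded every WT PBS library. The median log2 fold change was 1.81 over the members and 0.40 over all genes tested. Of all genes tested, 45.6% were called higher and 6.19% lower, and 31.4% were higher without overlap. After the libraries were shifted to the same median, 29 members were higher and none lower, against 17.4% higher and 22.5% lower of all genes, and the medians became 1.32 for the members and -0.09 for all genes. Bst2, Ifi35, Irf1, Parp9 and Stat2 were no longer called after that shift. With WT PBS 2 kept in the fit, 26 members were higher, and 15.3% of all genes were. Genes were tested if above 1 CPM in at least 5 libraries. Oas2, Oas1g and Ifi44 were below 1 CPM in every WT PBS and TNFa library fitted, so they passed only through libraries labelled PiZ or PiZ p50KO. Ifit2, Ifit3b and Oas3 were above 1 CPM in fewer than 5 of the WT PBS and TNFa libraries, so they too needed the PiZ-labelled ones to pass. For all these genes a higher level in PiZ was partly set by the filter. With a filter above 4 CPM 30 of 31 members tested were higher, as were 4747 of 10161 genes. That filter dropped Oas2, Oas1g, Ifit2 and Ifit3b. Usp18, Oasl1, Oasl2, Ifit3, Cmpk2, Mx2, Oas1a, Oas3 and Ifi44 were below 4 CPM in every WT PBS and TNFa library fitted. They passed the stricter filter only through libraries labelled PiZ or PiZ p50KO, so it does not remove this limit. Macrophage markers moved with this comparison: 9 of 10 were higher, and their summed level was 516 to 745 CPM in PiZ against 132 to 155 CPM in WT PBS. The summed levels of T and NK cell markers (3.77 to 5.02 CPM against 1.06 to 2.00) and of plasmacytoid dendritic cell markers (2.12 to 4.03 CPM against 0.19 to 0.63), which are low, did not overlap either, 3 of 4 endothelial markers were higher and 3 of 6 hepatocyte markers lower. The part of these cell types in the result was not tested.

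The family of the 2'-5' oligoadenylate synthetases (OAS) held the greatest changes, with all 6 members higher and a median log2 fold change of 3.76. Its active synthetases sense double-stranded RNA and activate RNase L, whereas Oasl1 lacks synthetase activity. Oas2 lay at -3.03, -3.22, -3.29, -3.49 and -3.60 log2 CPM in WT PBS libraries 1, 3, 4, 5 and 6, and at 3.09 in WT PBS 2. In PiZ it lay at 0.75, 1.04, 1.02, 0.56 and 0.42 log2 CPM. The groups were far apart except for WT PBS 2, which was above every PiZ library, and the log2 fold change was 4.09 ± 0.53 (SE; limma adjusted p = 3.39e-06), or 17.0-fold. Oas1a, whose promoter is shown above, was at -0.52, 0.10, -2.20, -0.17 and -1.54 log2 CPM in WT PBS (0.74 in WT PBS 2) and at 3.58, 3.51, 3.33, 2.28 and 3.19 in PiZ. Every PiZ library exceeded every WT library, by a log2 fold change of 4.04 ± 0.59 (limma adjusted p = 1.24e-05), or 16.5-fold. Oas3, Oas1g, Oasl2 and Oasl1 were higher by log2 fold changes of 3.87, 3.65, 2.60 and 2.18. In WT PBS the medians of Oas2, Oas1g and Oas3 were -3.29, -2.70 and -2.01 log2 CPM, where 1 read is 0.0185 to 0.0240 CPM. The sizes of these 3 changes therefore rest on few reads in WT PBS.

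The ISG15 system, a ubiquitin-like modifier and its enzymes, was higher in all 3 members. Usp18, the protease that removes ISG15 and dampens receptor signalling, was at 1.01, 1.63, 0.67, 1.11 and 0.64 log2 CPM in WT PBS (3.61 in WT PBS 2) and at 4.46, 4.21, 4.06, 3.77 and 4.48 in PiZ. The groups did not overlap, and the log2 fold change was 3.18 ± 0.45 (limma adjusted p = 8.99e-06), or 9.08-fold. Isg15 itself was at 1.63, 1.40, 0.69, 1.29 and 1.60 log2 CPM in WT PBS (1.65 in WT PBS 2) and at 4.20, 3.87, 3.90, 3.13 and 4.38 in PiZ. It was higher by a log2 fold change of 2.57 ± 0.41 (limma adjusted p = 2.96e-05), and here WT PBS 2 lay just above the other WT libraries. Herc6, the enzyme that attaches ISG15 in mice, had a log2 fold change of 1.09.

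The IFIT proteins, which bind viral RNA and block its translation, were higher in all 4 members, with log2 fold changes of 2.11 for Ifit2, 2.11 for Ifit3, 2.01 for Ifit1 and 1.98 for Ifit3b. Ifit2 was at 0.02, 0.06, -0.38, -0.61 and -0.20 log2 CPM in WT PBS (3.83 in WT PBS 2) and at 0.71, 1.86, 2.69, 2.26 and 1.90 in PiZ. PiZ 1 lay closest to the WT libraries, and the limma adjusted p was 0.000186.

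The transcription factors were higher in all 4 members, but not to the same degree. Irf7, the factor that drives later interferon alpha production, was at 2.98, 3.93, 2.96, 2.82 and 2.89 log2 CPM in WT PBS (5.19 in WT PBS 2) and at 5.75, 5.56, 5.78, 5.26 and 5.77 in PiZ. The groups were separated by more than 1 log2 unit, with a log2 fold change of 2.51 ± 0.44 (limma adjusted p = 9.57e-05). Irf1, which is induced by interferon gamma and TNFa, was at 4.23, 2.58, 2.86, 3.39 and 3.29 log2 CPM in WT PBS (3.16 in WT PBS 2) and at 4.65, 4.98, 4.43, 4.48 and 4.51 in PiZ. WT PBS 1 came near the PiZ libraries, and the log2 fold change was 1.34 ± 0.42 (limma adjusted p = 0.0112). The ISGF3 subunit Irf9 was at 4.17, 3.97, 3.65, 3.84 and 3.72 log2 CPM in WT PBS (5.33 in WT PBS 2) and at 5.14, 4.93, 4.88, 4.69 and 5.12 in PiZ, without overlap. Its log2 fold change was 1.08 ± 0.21 (limma adjusted p = 0.000244). Stat2, a subunit of ISGF3, was at 4.07, 3.83, 3.78, 4.22 and 3.94 log2 CPM in WT PBS (5.85 in WT PBS 2) and at 4.40, 4.82, 4.75, 4.22 and 4.80 in PiZ. PiZ 4 lay at the level of the highest WT library, and the log2 fold change of 0.63 ± 0.18 (limma adjusted p = 0.00704) was the smallest of the 4.

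All 5 sensors of nucleic acid were higher. Dhx58, the helicase LGP2 that modulates RNA sensing, was at 1.68, 2.26, 1.46, 1.76 and 2.01 log2 CPM in WT PBS (4.01 in WT PBS 2) and at 3.43, 3.12, 3.23, 3.03 and 3.59 in PiZ. The groups did not overlap, and its log2 fold change was 1.44 ± 0.21 (limma adjusted p = 9.69e-06). The Z-nucleic acid sensor Zbp1, the RNA-dependent kinase Eif2ak2 (PKR), and the RNA helicases Ifih1 (MDA5) and Ddx58 (RIG-I) followed with log2 fold changes of 1.44, 1.32, 1.09 and 1.02.

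Among the restriction factors, all 6 tested were higher. Trim30a was at 1.46, 1.73, 1.07, 1.49 and 1.31 log2 CPM in WT PBS (3.48 in WT PBS 2) and at 3.59, 3.57, 3.76, 3.54 and 3.24 in PiZ. The groups did not overlap, and the log2 fold change was 2.13 ± 0.30 (limma adjusted p = 8.92e-06). Rsad2 (viperin), Samd9l, the nucleotide kinase Cmpk2, the dynamin-like GTPase Mx2 and Bst2 had log2 fold changes of 1.81, 1.78, 1.68, 1.38 and 0.83. The untested Mx1, also a dynamin-like GTPase, was at -2.35, -6.52, -2.75, -3.49 and -6.52 log2 CPM in WT PBS (3.75 in WT PBS 2) and at -1.67, -1.66, 0.19, 0.04 and -0.92 in PiZ; the value of -6.52 is that of a library without a read.

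The smallest differences were in the complex of the ADP-ribosyltransferase Parp9 with the ubiquitin ligase Dtx3l. Parp9 had a log2 fold change of 0.40 ± 0.11 (limma adjusted p = 0.00363), which became -0.092 after the shift to the same median, and Dtx3l had one of 0.32 ± 0.17 (limma adjusted p = 0.117) and was not called. The related Parp14 was at 3.47, 3.33, 3.41, 2.71 and 2.98 log2 CPM in WT PBS (4.77 in WT PBS 2) and at 4.17, 4.55, 4.57, 4.47 and 4.78 in PiZ. It was higher without overlap, by a log2 fold change of 1.33 ± 0.27 (limma adjusted p = 0.000374). Of the other induced genes, Ifi44 was at -0.28, -1.53, -0.78, -1.12 and -1.64 log2 CPM in WT PBS (4.61 in WT PBS 2) and at 2.54, 2.14, 2.89, 2.97 and 2.18 in PiZ. It was higher by a log2 fold change of 3.61 ± 0.91 (limma adjusted p = 0.00238), or 12.2-fold, and WT PBS 2 was above every PiZ library. Xaf1, a cofactor of apoptosis, Rtp4, a chaperone of membrane receptors, and Ifi35 had log2 fold changes of 3.01, 2.16 and 0.57.

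**Figure D2:**
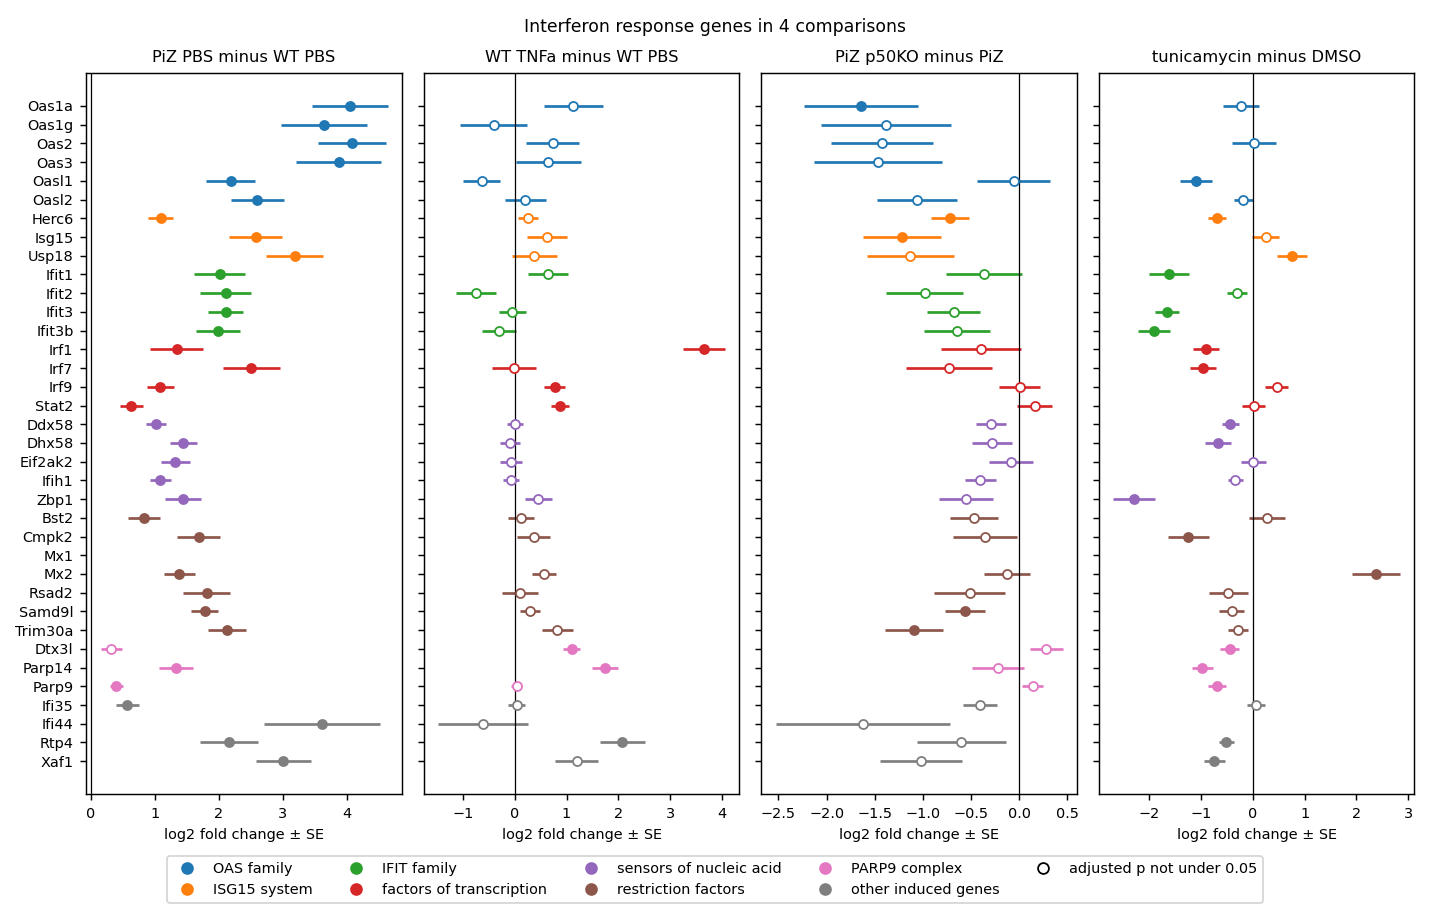
Log2 fold change (x axis, which differs between panels; bars show 1 SE) of each member, coloured by role, in PiZ against WT PBS, WT TNFa against WT PBS, PiZ p50KO against PiZ and tunicamycin against DMSO, with open symbols where the adjusted p was not under 0.05. The OAS genes lie farthest to the right in PiZ (4.09 for Oas2), Irf1 does so after TNFa (3.65), and most members lie left of 0 after tunicamycin.

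The next comparison asked which members had changed 2 h after TNFa, a cytokine that signals through NF-kB. Only a few had: 6 of 35 were higher and none was lower by limma (9 and 0 at an unadjusted p under 0.05), with a median log2 fold change of 0.30 over the members and -0.02 over all genes. Of all genes, 7.63% were called higher and 4.05% lower, and at an unadjusted p under 0.05 these were 1577 and 1369 of 13285. After the shift to the same median 7.42% were called higher and 6.18% lower, and 6 members were again higher. The 6 were Irf1, Rtp4, Parp14, Dtx3l, Stat2 and Irf9. In 4 of them (Irf1, Parp14, Dtx3l and Irf9) every TNFa library exceeded every WT PBS library, as did 3.94% of all genes. With WT PBS 2 in the fit 4 members were higher (Irf9 and Stat2 were lost), and 2.21% of all genes were. TNFa 4 had weaker differences than the other TNFa libraries: the median difference of the 6 genes from the WT PBS mean was 0.32 there and 1.37 to 1.86 in the others. Without that library 9 members were higher, with Mx2, Trim30a and Xaf1 added, and 1209 of 13285 genes were.

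Irf1 was at 4.64, 7.33 and 7.58 log2 CPM (lowest, median and highest of 6 TNFa libraries), against 2.58 to 4.23 in WT PBS. All TNFa libraries were higher, TNFa 4 by the least, and the log2 fold change was 3.65 ± 0.40 (limma adjusted p = 6.1e-06), or 12.6-fold. Rtp4 was at 1.99, 3.91 and 4.53 log2 CPM after TNFa and at 2.17, 1.59, 1.80, 1.60 and 1.39 in WT PBS (3.56 in WT PBS 2). TNFa 4 lay within the WT range, and the log2 fold change was 2.08 ± 0.44 (limma adjusted p = 0.00271). Parp14 was at 3.52, 5.23 and 5.39 log2 CPM after TNFa, with the lowest library just above the highest WT library, and its log2 fold change was 1.74 ± 0.26 (limma adjusted p = 0.000101). Dtx3l was at 5.13, 6.01 and 6.33 log2 CPM after TNFa and at 5.08, 4.78, 4.84, 4.59 and 4.82 in WT PBS (4.15 in WT PBS 2). Its log2 fold change was 1.10 ± 0.16 (limma adjusted p = 8.98e-05).

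Of the ISGF3 subunits, Stat2 was at 4.19, 4.98 and 5.18 log2 CPM after TNFa and had a log2 fold change of 0.87 ± 0.18 (limma adjusted p = 0.00182). Irf9 was at 4.19, 4.62 and 5.04 log2 CPM and had a log2 fold change of 0.77 ± 0.20 (limma adjusted p = 0.0128). The 4 transcription factors did not act as a block, since Irf7 was at 2.45, 3.15 and 3.54 log2 CPM, a range that overlaps that of WT PBS, with a log2 fold change of -0.02 ± 0.43 (limma adjusted p = 0.994). The classical antiviral effectors were likewise not called: Oas2 was at -3.96, -2.38 and -1.68 log2 CPM, with a log2 fold change of 0.74 ± 0.51 (limma adjusted p = 0.458). Ifit2 was at -1.48, -0.85 and -0.67 log2 CPM, each below every WT PBS library, with a log2 fold change of -0.75 ± 0.38 (limma adjusted p = 0.263). Neutrophil markers moved with TNFa: 3 of 5 were higher, with a summed level of 8.4 to 113 CPM against 2.4 to 22.4 CPM in WT PBS, lowest in TNFa 4. Macrophage markers were at a summed 172 to 266 CPM against 132 to 155 CPM, without overlap, with 3 of 10 called higher. The part of both in the result was not tested.

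PiZ and TNFa libraries were also compared directly; this comparison shares its libraries with those above. Of the 35 members, 29 were higher and 2 lower in PiZ than after TNFa, with a median of 1.38 over the members and 0.39 over all genes, of which 47.7% were called higher and 8.11% lower. After the shift to the same median 22 members were higher and 4 lower, against 20.7% higher and 22.8% lower of all genes; Parp14 and Stat2 were then among the lower. Irf7 was higher in PiZ by a log2 difference of 2.52 ± 0.43 (limma adjusted p = 4.83e-05). Irf1 and Dtx3l were lower in PiZ, by log2 differences of -2.31 ± 0.40 (limma adjusted p = 6.71e-05) and -0.78 ± 0.16 (limma adjusted p = 0.000366). Rtp4, with a log2 difference of 0.08 ± 0.44 (limma adjusted p = 0.888), and Parp14, with -0.42 ± 0.26 (limma adjusted p = 0.176), were not called.

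**Figure D3:**
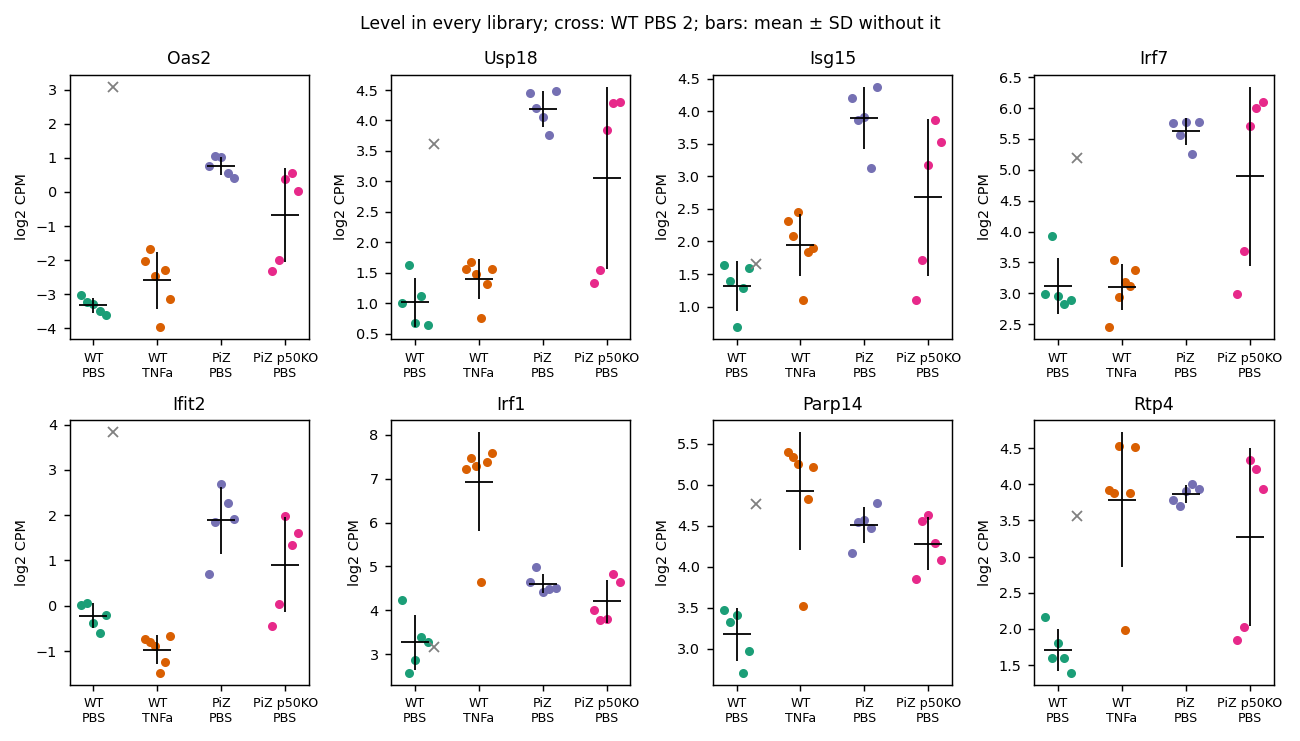
Log2 CPM (y axis) in every library of the first table for members that carry the comparisons, by group, with bars for the mean ± SD and a cross for WT PBS 2, which is left out of the mean. Oas2, Usp18 and Irf7 are high in PiZ but not after TNFa, Irf1 is highest after TNFa, and the PiZ p50KO libraries of these 3 genes split into 2 low and 3 high.

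The next comparison set the libraries labelled PiZ p50KO against PiZ. Nfkb1 was at 4.51, 4.86, 3.31, 3.74 and 3.37 log2 CPM in the libraries labelled PiZ p50KO 1 to 5, at 5.58, 5.45, 5.00, 4.62 and 5.12 in PiZ, and at 4.34, 4.17, 3.92, 4.32 and 4.14 in WT PBS (6.68 in WT PBS 2). Libraries 3 to 5 were below every WT library, whereas libraries 1 and 2 were above them and, in library 2, within the PiZ range. Whether libraries 1 and 2 carry the labelled genotype cannot be read from these data, and directions drawn from the label below rest on this uneven group. Nfkb1 was lower in the libraries labelled PiZ p50KO than in PiZ by a log2 difference of -1.20 ± 0.34 (limma adjusted p = 0.0145). Reads from exons outside a deletion would not show it.

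Of the 35 members, 5 were lower in the libraries labelled PiZ p50KO than in PiZ and none was higher, with a median of -0.55 over the members and -0.22 over all genes, of which 3.36% were higher and 21.6% lower. The 5 were Oas1a, Isg15, Trim30a, Herc6 and Samd9l. After the shift to the same median none was lower (4 at an unadjusted p under 0.05) and Parp9 and Dtx3l were higher, against 9.84% higher and 9.11% lower of all genes. Isg15 was at 1.11, 1.71, 3.18, 3.87 and 3.53 log2 CPM in libraries 1 to 5. Libraries 1 and 2 lay near the WT level and the others within the PiZ range, and the log2 difference was -1.22 ± 0.41 (limma adjusted p = 0.0339). Trim30a was at 1.37, 1.69, 3.12, 3.02 and 3.03 log2 CPM, with a log2 difference of -1.09 ± 0.30 (limma adjusted p = 0.0119). Oas1a was at -0.68, -0.07, 2.41, 2.99 and 3.05 log2 CPM, with a log2 difference of -1.64 ± 0.59 (limma adjusted p = 0.0474). In both genes libraries 1 and 2 overlapped the WT range while libraries 3 to 5 were more than 1 log2 unit above it. Herc6 was at 1.93, 2.11, 3.06, 2.49 and 2.37 log2 CPM, with a log2 difference of -0.72 ± 0.20 (limma adjusted p = 0.0111), and Samd9l at 2.90, 2.94, 3.50, 3.23 and 2.77, with -0.56 ± 0.21 (limma adjusted p = 0.049).

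The same division of the libraries ran through most members. Irf7 was at 2.99, 3.69, 5.71, 6.00 and 6.09 log2 CPM in libraries 1 to 5, Usp18 at 1.33, 1.55, 3.84, 4.29 and 4.30, and Oasl1 at 2.82, 2.74, 3.95, 5.00 and 4.78. Irf9 was at 4.25, 4.46, 5.19, 5.39 and 5.50 log2 CPM, above every WT library in all 5. Stat2 and Irf1 differed from that pattern: Stat2 was at 4.58, 5.25, 4.37, 4.82 and 4.78 log2 CPM, highest in library 2, and Irf1 at 4.01, 3.79, 3.80, 4.83 and 4.64. Of the 35 members, 8, 10, 31, 34 and 34 were closer to the PiZ mean than to the WT PBS mean in libraries 1 to 5. As shares these were 22.9%, 28.6%, 88.6%, 97.1% and 97.1%, beside 17.8%, 31.0%, 45.7%, 67.8% and 59.1% of the 4716 other genes whose PiZ and WT PBS libraries did not overlap. The WT PBS range held 22 and 17 members in libraries 1 and 2, 3 in library 3 and 0 in libraries 4 and 5. Of the 4716 other genes it held 2392, 1796, 1334, 803 and 1066 in libraries 1 to 5.

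Without libraries 1 and 2 limma called no member lower than in PiZ (1 at an unadjusted p under 0.05), the median was -0.07, and 9.57% of all genes were lower. Leaving out library 1 or library 2 alone, or PiZ 2, 3 or 5, left 2 members lower, and leaving out 3, 4 or 5 gave 12, 12 and 11. Of 13285 genes, 1901 to 2467 were lower when library 1 or 2 or PiZ 2, 3 or 5 was left out. Without library 3, 4 or 5 these were 2754, 3140 and 2946. With WT PBS 2 in the fit limma called 0 members lower, and 5 at an unadjusted p under 0.05. In that fit 401 of 13285 genes were called lower. Macrophage markers also differed between the libraries, but here library 3 lay nearer to libraries 1 and 2 than to 4 and 5. Their summed level was 218, 218, 257, 397 and 408 CPM in libraries 1 to 5, between the WT PBS and PiZ ranges, and all 10 were lower than in PiZ; their part in the result was not tested.

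Against WT PBS, 29 of the 35 members were higher in the libraries labelled PiZ p50KO and none was lower, with a median of 1.25 over the members and 0.19 over all genes. Of all genes, 10.5% were higher and 1.14% lower. After the shift to the same median 17 members were higher, against 3.2% higher and 4.33% lower of all genes. Without libraries 1 and 2 the count was 32, where 2049 of 13285 genes were higher. It was 16 without library 4 and 19 without WT PBS 6, where 656 and 739 genes were higher. With WT PBS 2 in the fit limma called no member, and 11 of all genes higher, and 19 members were higher at an unadjusted p under 0.05. Oas2, Oas3, Oas1a and Oas1g were again among the greatest, with log2 fold changes of 2.66 ± 0.53, 2.41 ± 0.66, 2.40 ± 0.59 and 2.27 ± 0.68 (limma adjusted p = 0.00579, 0.0245, 0.0155 and 0.0344).

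**Figure D4:**
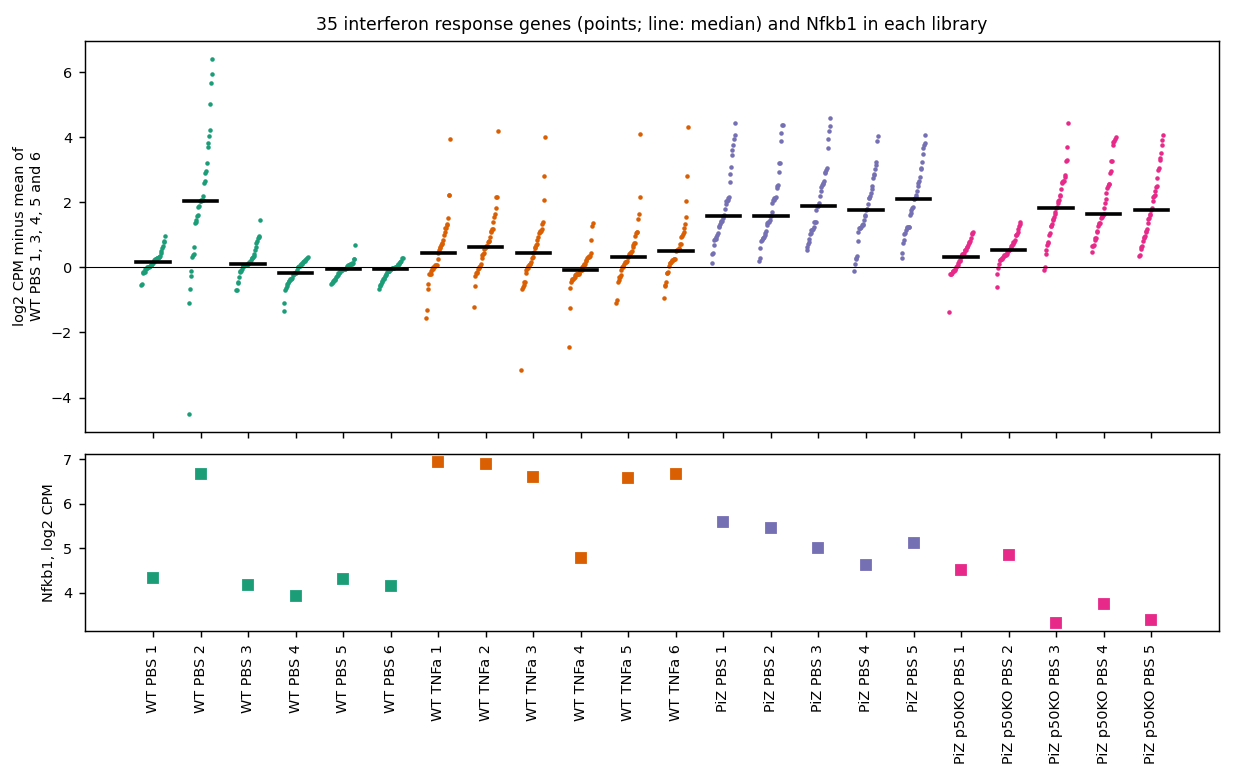
Upper panel: difference of each of 35 members from its WT PBS mean (y axis, log2 CPM; WT PBS 2 left out of the mean) in each library of the first table, with 1 point per member and a line at the median; lower panel: Nfkb1 (log2 CPM). PiZ p50KO libraries 1 and 2 have medians of 0.32 and 0.52, near WT PBS, and libraries 3 to 5 have medians of 1.84, 1.65 and 1.78.

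In the second table, tunicamycin at 24 h was compared with DMSO. Here the members more often fell: 16 of 32 were lower and 2 higher, with a median log2 fold change of -0.44 over the members and 0.38 over all genes. Of all genes, 45.3% were higher and 13.5% lower. After the shift to the same median 22 members were lower and 1 higher, against 24.1% higher and 29.2% lower of all genes, and the medians became -0.90 and -0.07. In 8 members every tunicamycin library was below every DMSO library, as in 4.76% of all genes. Hepatocyte and macrophage markers moved with tunicamycin. The summed hepatocyte level was 102700 to 138207 CPM after DMSO and 27407 to 79843 CPM after tunicamycin, and the summed macrophage level 177 to 585 CPM and 145 to 218 CPM. The value of 585 CPM is that of DMSO 5, and the next highest was 305 CPM. DMSO 5 also held the highest level of 24 of the 32 members among the DMSO libraries. How many of all genes were highest in it was not counted. Without DMSO 5, 13 members were lower, and 1614 of 13388 genes were. The summed level of the 4 plasmacytoid dendritic cell markers was 0.71 to 1.93 CPM after DMSO and 3.54 to 29.0 CPM after tunicamycin. Of these, Cox6a2 (0 to 0.054 and 2.18 to 8.89 CPM) and Klk1 (0 to 0.557 and 0.129 to 19.7 CPM) reached higher levels, while Siglech (0.139 to 1.30 and 0.258 to 0.550 CPM) and Ccr9 (0.175 to 0.696 and 0.084 to 0.823 CPM) overlapped. The part of these cell types in the result was not tested.

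Zbp1 and 3 of the 4 IFIT genes had the greatest falls. Zbp1 was at 1.55, 2.29 and 3.75 log2 CPM (lowest, median and highest of 6) after DMSO and at -0.81, -0.16 and 1.29 after tunicamycin. The groups did not overlap, and the log2 fold change was -2.30 ± 0.41 (limma adjusted p = 0.0004), or 4.91-fold lower. Ifit3b was at 0.30, 0.92 and 1.76 log2 CPM after DMSO and at -1.80, -1.01 and -0.35 after tunicamycin. It too was lower without overlap, by a log2 fold change of -1.91 ± 0.31 (limma adjusted p = 0.000224). Ifit3 and Ifit1 had log2 fold changes of -1.67 ± 0.23 (limma adjusted p = 7.96e-05) and -1.62 ± 0.38 (limma adjusted p = 0.00275), whereas Ifit2 had -0.30 ± 0.19 (limma adjusted p = 0.189) and was not called.

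The transcription factors split into Irf7 and Irf1, which fell, and Irf9 and Stat2, which were not called. Irf7 was at 2.67, 3.76 and 4.42 log2 CPM after DMSO and at 2.38, 2.70 and 3.21 after tunicamycin. These ranges overlapped, and the log2 fold change was -0.96 ± 0.25 (limma adjusted p = 0.00528). Irf1 was at 3.95, 4.71 and 5.33 log2 CPM after DMSO and at 2.95, 3.89 and 4.31 after tunicamycin, with a log2 fold change of -0.90 ± 0.25 (limma adjusted p = 0.00653). Irf9 was at 3.77, 4.50 and 4.91 log2 CPM after DMSO and at 4.31, 4.93 and 5.39 after tunicamycin, with a log2 fold change of 0.46 ± 0.22 (limma adjusted p = 0.0861). Stat2 was at 5.72, 6.13 and 6.34 log2 CPM after DMSO and at 5.51, 6.06 and 6.72 after tunicamycin, with overlapping ranges and a log2 fold change of 0.01 ± 0.22 (limma adjusted p = 0.962).

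All 3 genes of the PARP9 complex fell. Parp14 was at 4.88, 5.14 and 5.53 log2 CPM after DMSO and at 3.66, 4.00 and 4.75 after tunicamycin, without overlap, and its log2 fold change was -0.98 ± 0.20 (limma adjusted p = 0.000995). Parp9 and Dtx3l had log2 fold changes of -0.69 and -0.45. In the OAS family 1 of 4 tested members was lower, Oasl1, an OAS-like protein without synthetase activity. It was at 1.96, 2.87 and 3.55 log2 CPM after DMSO and at 0.83, 1.67 and 2.57 after tunicamycin, with overlapping ranges and a log2 fold change of -1.10 ± 0.31 (limma adjusted p = 0.00856). Oas2 had a log2 fold change of 0.02 ± 0.42 (limma adjusted p = 0.967). Xaf1 was at 1.21, 1.50 and 2.17 log2 CPM after DMSO and at 0.44, 0.98 and 1.13 after tunicamycin, without overlap, with a log2 fold change of -0.75 ± 0.21 (limma adjusted p = 0.00747). The other members that fell were Cmpk2 (-1.25), Herc6 (-0.69), Dhx58 (-0.67), Rtp4 (-0.52) and Ddx58 (-0.44), each a log2 fold change; Dtx3l, Dhx58 and Ddx58 lost their calls when certain single libraries were left out, DMSO 4, 5 and 6 among them.

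Against this direction, Mx2 rose after tunicamycin. It was at 2.95, 3.33 and 4.18 log2 CPM after DMSO and at 3.70, 5.97 and 7.09 after tunicamycin, and the only tunicamycin library inside the DMSO range was the one in column 1647, at 3.70. The log2 fold change was 2.38 ± 0.46 (limma adjusted p = 0.00077), or 5.21-fold. Usp18 was at 0.63, 1.74 and 2.05 log2 CPM after DMSO and at 1.73, 2.25 and 3.10 after tunicamycin. Its ranges overlapped, and the log2 fold change of 0.76 ± 0.29 (limma adjusted p = 0.0371) was no longer called after the shift to the same median (limma adjusted p = 0.365) or without any 1 of DMSO 2, 3 or 6, tunicamycin 1 or the libraries of columns 1643 and 1667. Tunicamycin libraries varied in how far the 16 lower members fell: 10, 15 and 15 were below every DMSO library in tunicamycin 1, 5 and 6, and 15, 8 and 12 in the libraries of columns 1643, 1647 and 1667, which carry no replicate number of their own.

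**Figure D5:**
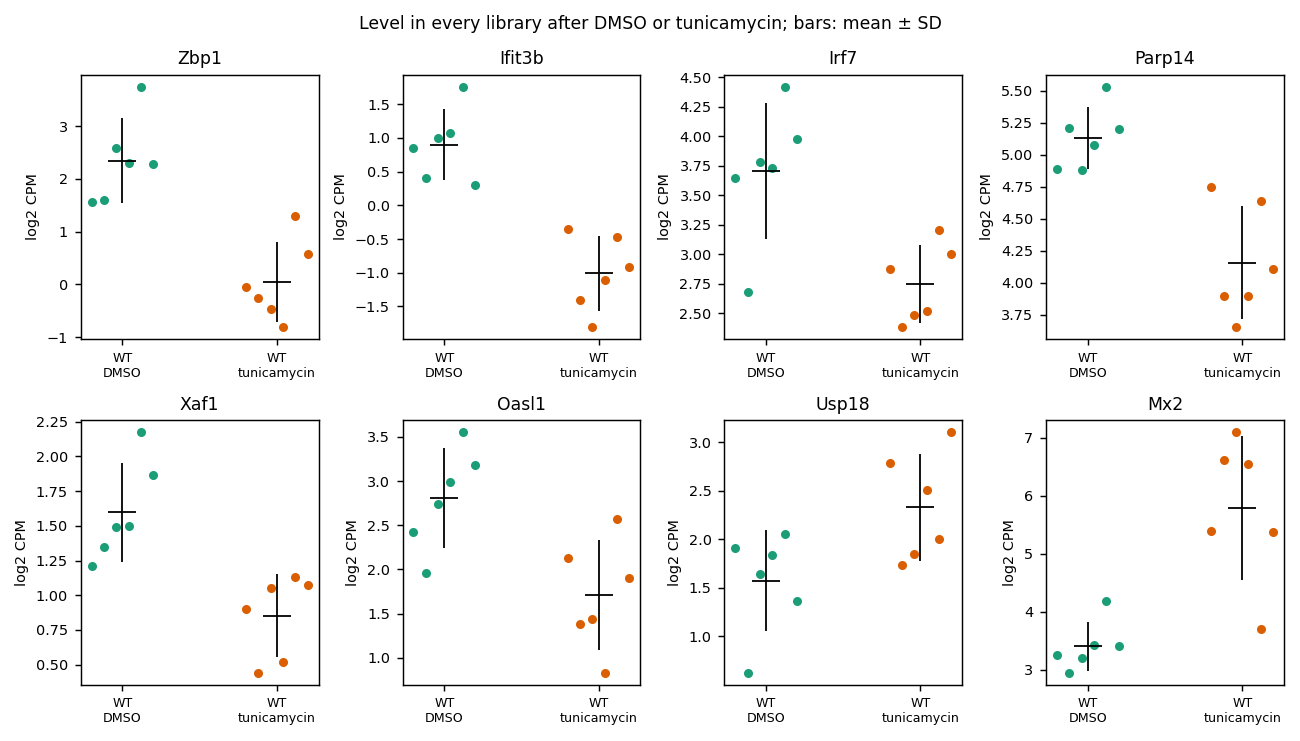
Log2 CPM (y axis) in each DMSO and tunicamycin library for members that carry the comparison, with bars for the mean ± SD. Zbp1, Ifit3b, Parp14 and Xaf1 lie lower after tunicamycin without overlap, and Mx2 lies higher in all but 1 library.

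The other genes of the interferon pathway were taken from a list of 38 ligands, receptors, kinases, factors, sensors and inhibitors. No ligand gene reached the level needed for a test. Of the 10 ligand genes, Ifnb1, Ifna1, Ifna2, Ifna4, Ifna5, Ifne and Ifnl2 had no read in any of the 21 libraries of the first table other than WT PBS 2, and the same 7 and Ifnl3 had none in the 12 libraries of the second. A count of 0 allows up to 3 reads, or 0.0556 to 0.0846 CPM in the first table and 0.0628 to 0.0874 CPM in the second, which covers counting error only. Ifnk, Ifng and Ifnl3 had reads in some libraries; the highest median of a group was -1.87 log2 CPM for Ifnk after DMSO. In WT PBS 2, Ifnl2 was at 3.43, Ifna2 at 3.17, Ifnk at 2.51, Ifng at 1.65, Ifne at 1.65 and Ifnb1 at 0.90 log2 CPM.

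Of the 26 other pathway genes tested in the first table, 18 were higher and none lower in PiZ than in WT PBS, where 45.6% of all genes were higher. After the shift to the same median 12 were higher and 3 lower, against 17.4% and 22.5% of all genes, and with WT PBS 2 in the fit 11 were higher. The greatest differences were in the endosomal nucleic acid receptors Tlr9 and Tlr7, with log2 fold changes of 2.99 ± 0.53 (limma adjusted p = 9.89e-05) and 2.77 ± 0.52 (limma adjusted p = 0.000176), and the signalling inhibitor Socs1, with 2.58 ± 0.68 (limma adjusted p = 0.00338); with WT PBS 2 in the fit Tlr9 and Socs1 were not called (limma adjusted p = 0.162 and 0.335). After TNFa 15 of 26 were higher and none lower, where 7.63% of all genes were higher; the count was 15 after the shift and 11 with WT PBS 2 in the fit. Socs1 led with 5.44 ± 0.65 (limma adjusted p = 1.36e-05), or 43.5-fold, followed by Socs3 with 2.67, the adaptor Myd88 with 2.19 and Irf8 with 1.93, all log2 fold changes. These counts share the WT PBS libraries.

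Between the libraries labelled PiZ p50KO and PiZ, 10 of the 26 were lower and none higher, where 21.6% of all genes were lower. The count of lower genes was 4 after the shift, 4 without libraries 1 and 2 and 2 with WT PBS 2 in the fit. The interferon gamma receptor genes Ifngr1 and Ifngr2 were lower by log2 differences of -1.26 (limma adjusted p = 0.000159) and -1.11 (limma adjusted p = 0.00313), and were called under each of these settings. Without libraries 1 and 2 their log2 differences were -1.15 and -0.996 (limma adjusted p = 0.00353 and 0.0371). Tlr7 and Tlr9 had log2 differences of -1.63 (limma adjusted p = 0.0265) and -1.46 (limma adjusted p = 0.0484), which were called under none of them. Tlr7 was at -1.66, -0.53, 1.97, 1.94 and 1.29 log2 CPM in libraries 1 to 5, low in libraries 1 and 2, and without those libraries its log2 difference was -0.50 (limma adjusted p = 0.356). Against WT PBS 4 pathway genes were higher in the libraries labelled PiZ p50KO, where 10.5% of all genes were, among them Il10rb, Jak1 and Trim25, with log2 fold changes of 0.60, 0.44 and 0.41. The count was 1 after the shift, 9 without libraries 1 and 2 and 0 with WT PBS 2 in the fit, and these 3 genes were not called after the shift.

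After tunicamycin 7 of 23 pathway genes tested were higher and 4 lower, beside 45.3% higher and 13.5% lower of all genes, and after the shift 3 were higher and 10 lower, beside 24.1% and 29.2%. The receptor gene Ifnar1 rose with a log2 fold change of 0.79 (limma adjusted p = 0.000325), as did the kinase Tyk2 with 1.04 and the adaptor Ticam1 with 1.17. After the shift these were 0.34, 0.59 and 0.72 and were again called (limma adjusted p = 0.0126, 0.0105 and 0.00143). Irf5 and Tlr3 had log2 fold changes of -1.79 (limma adjusted p = 0.000521) and -0.85.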

How the data were processed

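Liver RNA-seq was deposited by the authors as gene tables of log2 CPM values, which the authors named moderated and which hold a small constant where a gene has no read. Depth was read from the size of 1 read in the low values, and p-values measure only the spread between libraries. Per the submitters' processing notes, bcl2fastq, DRAGEN, STAR, featureCounts (Subread), edgeR and the GRCm38 build were used, with no order given. The members and gene lists were chosen with earlier results of these data known. Genes above 1 CPM in at least 5 libraries (first table) or 6 (second) were kept and fitted with limma 3.58.1 in R 4.3.3 (mean-variance trend), 1 model per table, with Benjamini-Hochberg adjustment over all genes of the table. The test was checked on simulated data. WT PBS 2 was left out. Alternatives were WT PBS 2 kept, log2(CPM + 1), other filters, the shift to the same median, quantile scaling, only the compared groups, robust moderation, a replicate block and single libraries left out. Every member could be named; values by library are given for the transcription factors and, in each role and comparison, the called member with the greatest change, and elsewhere were chosen after the values were seen. Non-members are the ligands, Nfkb1 and up to 6 pathway genes per comparison. Not all same-numbered libraries deviated together, so no pairing was used.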

Additional observations from a re-analysis of the deposited data

Results flagged for a closer look

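Of 114 sets of values (1 member in 1 group) tested, 8 had a library far from the others of its group by Dixon's criterion, which chance gives in about 1 of 20. In the TNFa group, library 4 was the low one for 4 members: Irf1 at 4.64 log2 CPM (next lowest 7.21), Parp14 at 3.52 (next lowest 4.82), Rtp4 at 1.99 (next lowest 3.88) and Xaf1 at -0.39 (next lowest 0.58). In WT PBS, Irf7 was at 3.93 log2 CPM in library 3 (next highest 2.98). Trim30a was at 2.84 log2 CPM in DMSO 5 (next highest 1.99) and at 1.40 in the tunicamycin library of column 1667 (next lowest 1.70). Ifit2 was at 0.22 log2 CPM in the tunicamycin library of column 1647 (next lowest 0.53).

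WT PBS 2 was left out of the reported tests other than those named as including it. In it 30 members of the 35 tested were above every other WT PBS library. Of 4716 other genes whose PiZ and WT PBS libraries did not overlap, 3360 were as well. Bst2, at 1.94 log2 CPM, Ifi35, at 2.76, Dtx3l, at 4.15, and Ddx58, at 3.86, were below every other WT PBS library.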

How the results depend on the processing

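Counts of members called higher in PiZ than in WT PBS stayed at 34 with any single library left out and were 21 with WT PBS 2 kept and libraries shifted to the same median. Of 13285 genes, 5343 to 6649 were higher in the former fits and 1010 in the latter. The counts after TNFa stayed within 1.5 times the reported one under all alternatives tried. The comparison of PiZ p50KO with PiZ was the least stable. In place of 5 members lower there were 8 with log2(CPM + 1), 2 with no filter, 2 with only the 2 groups fitted, and 0 with WT PBS 2, after the shift, after quantile scaling, without PiZ p50KO 1 and 2, and with WT PBS 2 and the shift together; leaving out 1 library gave 2 to 12. With 1 library left out, 1901 to 3450 of 13285 genes were lower. The lower genes numbered 3142 with log2(CPM + 1), 1932 with only the 2 groups and 2554 of 37048 with no filter. They numbered 401 with WT PBS 2, 1210 after the shift and 1388 after quantile scaling. Without PiZ p50KO 1 and 2 they numbered 1271, and with WT PBS 2 and the shift 238. Members higher in that comparison numbered 2 after the shift and 1 after quantile scaling, where 1307 and 1259 of 13285 genes were higher. Against WT PBS, 29 members higher in PiZ p50KO became 17 after the shift, 14 after quantile scaling and 9 with only the 2 groups. They became 0 with WT PBS 2, with or without the shift, and leaving out 1 library gave 16 to 30. Of 13285 genes, 425 were higher after the shift, 299 after quantile scaling and 304 with only the 2 groups. With WT PBS 2 the genes higher numbered 11 without the shift and 7 with it, and leaving out 1 library gave 656 to 1859. Between PiZ and TNFa, 4 members were lower after the shift, after quantile scaling and with WT PBS 2 and the shift, which last left 19 higher. Of 13285 genes, 3035, 2829 and 981 were lower in these settings, and 1466 were higher in the last. After tunicamycin 1 member was higher with no filter, with a filter above 4 CPM, after the shift and after quantile scaling. Leaving out 1 library gave 1 to 3. The genes higher numbered 6605 of 35224 with no filter and 5106 of 10265 with the filter above 4 CPM. Of 13388 genes, 3233 were higher after the shift, 3534 after quantile scaling and 5417 to 6323 with 1 library left out. Parp9 changed sign after the shift in PiZ against WT PBS (-0.092) and against TNFa (-0.068, also with WT PBS 2), and Ifi35 did so after tunicamycin, with -0.40 after the shift and -0.39 after quantile scaling, both log2 fold changes. The cause was not tested. The settings with WT PBS 2 and the shift, with WT PBS 2 and no TNFa 4, and with the 6 libraries of the block were chosen after the data were seen.

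With the replicate number as a block, 34 members were higher in PiZ, 6 after TNFa and 21 in PiZ p50KO against WT PBS, and 2 were lower in PiZ p50KO than in PiZ. Over all 13285 genes the same counts were 5404, 893, 699 and 2543. The block for tunicamycin could use replicates 1, 5 and 6 only and gave 1 higher and 12 lower, against 1 and 15 in the same 6 libraries without it. Of 13388 genes, 4759 were higher and 1761 lower with that block, and 5173 and 1856 without it. In no comparison did all same-numbered libraries deviate together, so the numbers were not taken as pairs.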

Other observations

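Dtx3l and Parp9 start head to head and encode partners of 1 complex. After TNFa Dtx3l rose by a log2 fold change of 1.10, while Parp9 had 0.04 ± 0.10 (limma adjusted p = 0.901). The log2 ratio of Dtx3l to Parp9 was 0.52, 1.23 and 1.57 (lowest, median and highest of 6 TNFa libraries) against -0.14, 0.11 and 0.36 in 5 WT PBS libraries, without overlap, and -0.17 to 0.21 in PiZ. The pair was chosen after its values were seen, so its ratio is a description with no test, and the genes overlap, so reads of the shared stretch cannot be told apart.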
